A study of Rattus norvegicus with 6 samples.

Results

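A set of 7 genes of water and ion transport was followed in rat toe flexor muscle: the water channels Aqp1 and Aqp4, the sodium pump beta subunits Atp1b1 and Atp1b2, their relative Atp1b4, the pump regulator Fxyd1 and the cotransporter Slc12a2. They were chosen by name for their bearing on oedema in a closed muscle compartment, and a row of the deposited table was taken where its gene name equalled a listed name. All 7 of 7 names were found among the 30957 genes of the table, and all 7 were among the 12873 genes with enough reads to test. RNA came from the flexor digitorum longus of the hind limb of wild-type Sprague-Dawley rats, with 3 libraries of control muscle labelled 0 h and 3 libraries labelled 18 h after the start of acute compartment syndrome (ACS), a rise of pressure inside a closed muscle compartment. ACS was produced by tying a band of low elasticity around the skin over the knee. All 6 libraries carry ACS as their treatment label, so the groups were taken from the titles. No 18 h library without ACS was analysed here, so ACS and the time since the start of the experiment cannot be told apart. The sources used here give neither the age and number of the rats nor whether each library is from its own rat. A p-value here therefore reflects only how these samples spread, which may be technical.

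Water crosses cell membranes mainly through aquaporins. In muscle, Aqp1 is known from the endothelium of capillaries and from red cells, and Aqp4 from the surface membrane of fast fibres, where it is held at the dystrophin complex. The sodium pump moves sodium out of the cell and potassium in, at the cost of ATP. Its alpha subunit does the transport, its beta subunit is a glycoprotein that brings alpha to the membrane, and FXYD proteins tune its affinity and rate. Slc12a2, the cotransporter NKCC1, carries sodium, potassium and chloride into the cell and is used by shrunken cells to regain volume. The WNK kinases act on Stk39 (SPAK) and Oxsr1, which in turn phosphorylate and activate Slc12a2.

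Library totals lay between 14340865 and 21003928 counts. Genes of the mitochondrial chromosome took 7.52% to 8.60% of the counts in control libraries, and 43.4%, 4.82% and 5.33% in ACS replicates 1, 2 and 3, so ACS replicate 1 stood apart. Levels are given below as CPM (counts scaled to a common library size), with TMM factors that keep a few very abundant genes from shifting the rest. CPM serves to compare a gene between libraries, and FPKM, which also divides by gene length, to compare genes within a library. In whole muscle, fewer cells of a type and less RNA per cell cannot be told apart.

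None of the 7 genes passed the threshold between ACS and control muscle. In edgeR's quasi-likelihood test 3.43% of all tested genes were called higher and 0.707% were called lower with ACS (adjusted p under 0.05), so a set of 7 with no call lies near the background. In edgeR 0 of the 7 had an unadjusted p under 0.05, against 3024 of 12873 tested genes (23.5%). DESeq2, limma-voom and limma on log2(FPKM + 1) called 0 of 7 as well. At an unadjusted p under 0.05 DESeq2 had 0 of the 7 and 3581 of 18724 genes, limma-voom 1 and 2938 of 12873, and limma 2 and 2930 of 11040. For 0 of 7 was every ACS library above every control library, which held for 16.7% of tested genes. Likewise 0 of 7 had every ACS library below every control library, against 14.8% of tested genes. The fitted difference was negative for 6 of the 7, with a median log2 fold change of -0.55, and negative for 50.7% of all tested genes, with a median of -0.01. Without ACS replicate 1 the median of the 7 was -0.20, with 5 negative. Among all genes the split of calls was 442 higher and 91 lower (82.9% higher), but 345 and 228 (60.2%) when scaled by library totals and 249 and 268 (48.2%) in limma on log2(FPKM + 1). Scaling by library totals moved the median of all genes to -0.32 and that of the 7 to -0.80, and log2(FPKM + 1) moved them to -0.30 and -0.77.

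**Figure D1:**
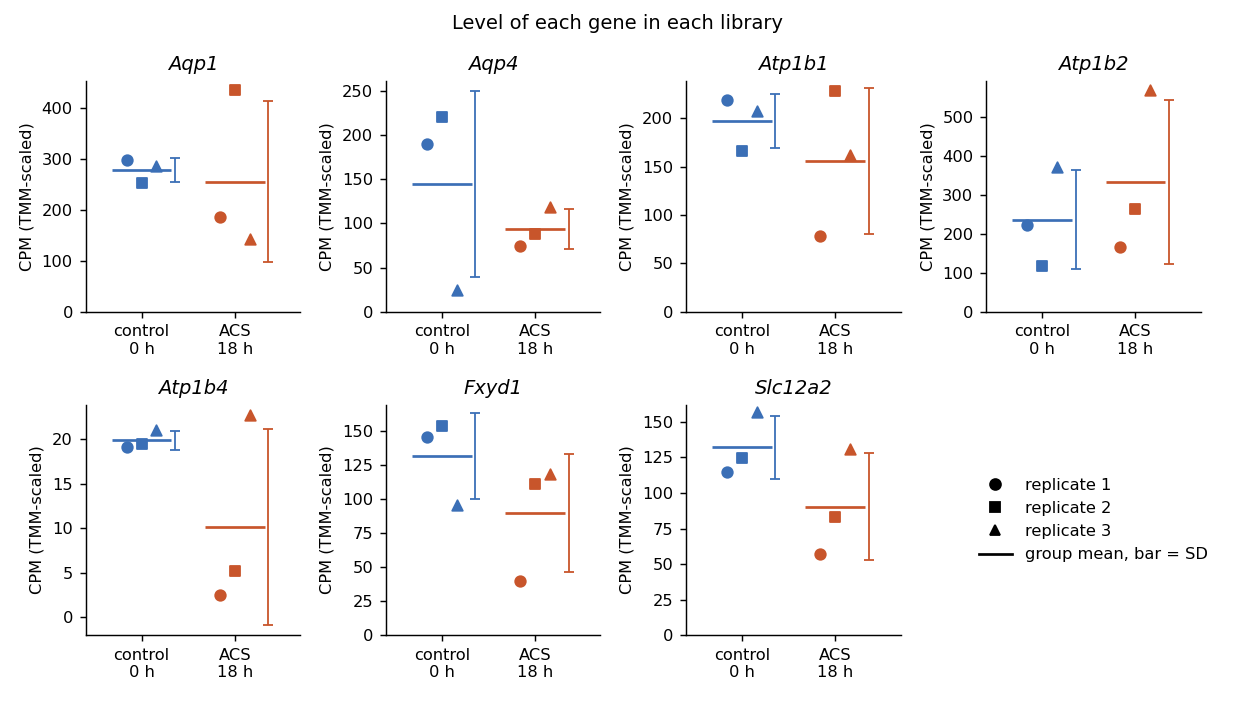
Level of each of the 7 genes in each library, in TMM-scaled CPM on linear axes that include 0, with replicates 1 to 3 as circle, square and triangle, the group mean as a line and the SD (n = 3) as the bar beside it. In every panel the ranges of the groups overlap, and control replicate 3 lies far below the other controls for Aqp4.

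The water channel Aqp1 (ENSRNOG00000011648, chromosome 4, 85551502 to 85569360 on Rnor 6.0) was at 299, 254 and 286 CPM in control replicates 1, 2 and 3 and at 186.5, 437 and 143 CPM in ACS replicates 1, 2 and 3. The controls were close together, while the ACS libraries lay on both sides of them, replicate 2 above every control and replicates 1 and 3 below every control. Control muscle averaged 279.7 ± 23.5 CPM and ACS muscle 256 ± 159 CPM (SD, n = 3 each). The log2 fold change was -0.13 (SE 0.420, 95% interval from -1.09 to 0.83, adjusted p = 0.876 in edgeR). Its sign turned with the library left out, to 0.05 without ACS replicate 1 and 0.15 without ACS replicate 3, against -0.80 without ACS replicate 2.

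Because Aqp1 is carried by endothelium and red cells, the markers of both were read beside it. The 7 endothelial markers matched summed to between 233 and 337 CPM in control libraries. In ACS replicates 1, 2 and 3 they summed to 503, 246 and 161 CPM. None of these 7 passed in edgeR, and 5 were lower in ACS muscle by their fitted difference. The 5 red cell rows summed to between 445 and 1221 CPM in control and to 10328, 1747 and 4417 CPM in ACS muscle, and 2 of the 4 tested were higher. The ACS library with the highest Aqp1, replicate 2, thus held the lowest red cell sum of its group and was the middle one for endothelial markers. The part of either cell type in the level of Aqp1 was not tested beyond these values.

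Aqp4 (ENSRNOG00000016043, chromosome 18, 6765945 to 6782996), the channel of the fibre membrane, was at 189, 220.3 and 24.8 CPM in control replicates 1, 2 and 3. The ACS libraries were at 74.5, 88.3 and 119 CPM. All 3 ACS libraries were below control replicates 1 and 2 and above control replicate 3. The controls spanned 8.89-fold, and their SD of log2 CPM was at the 99.8th percentile of 7001 genes with a mean of at least 10 CPM. The ACS libraries spanned 1.59-fold, at the 32.9th percentile. The means were 145 ± 105 CPM and 93.8 ± 22.7 CPM (SD, n = 3 each), with a log2 fold change of -0.63 (SE 0.647, 95% interval from -2.10 to 0.85, adjusted p = 0.589 in edgeR). It was -1.16 without control replicate 3, -0.43 without control replicate 1, -0.23 without control replicate 2 and -0.15 in limma-voom. It was -1.34 with both libraries whose description holds "ji" left out, which are replicate 3 of each group. None of these passed, and adjusted p lay between 0.0950 and 0.918 over 19 alternatives.

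The 6 muscle fibre markers were read beside the low Aqp4 of control replicate 3. They summed to 86356, 89351 and 63713 CPM in control replicates 1, 2 and 3, lowest in replicate 3. Among the controls, replicate 3 was the lowest for Ckm, Acta1 and Mylpf, the highest for Tnnt3 and Pvalb and the middle one for Actn3. Mylpf, a fast myosin light chain, was at 4779, 7633 and 4042 CPM, while Myh1, a fast myosin heavy chain, was at 60768, 48528 and 63265 CPM. The part of fibre content in the level of Aqp4 was not tested; all these markers are named after their values were seen. Of the 4 anchoring genes, all tested, none passed in edgeR, and 2 had a negative log2 fold change. Dmd, encoding dystrophin and the most abundant of them, averaged 554 ± 98.5 CPM in controls and 600.4 ± 236 CPM with ACS (SD, n = 3 each).

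By FPKM Aqp1 was above Aqp4 in every library. Aqp4 made up 21.9%, 27.8% and 3.70% of the sum of both in control replicates 1, 2 and 3, and 15.05%, 8.22% and 26.9% in ACS replicates 1, 2 and 3. The groups overlapped throughout, with means of 17.8% ± 12.6 and 16.7% ± 9.42 (SD, n = 3 each; exact two-sided permutation p = 0.9, where 0.1 is the smallest that 3 libraries against 3 allow). Of the 10 other aquaporins on the list, 4 had no count in any library and 1, the water and glycerol channel Aqp7, had enough reads to test. Aqp7 averaged 2.19 ± 0.854 CPM in controls and 0.993 ± 0.916 CPM with ACS (SD, n = 3 each; adjusted p = 0.378 in edgeR); it is named although Aqp1 is the more abundant of its list, since it was the only other one tested.

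The beta subunit Atp1b1 (ENSRNOG00000002934, chromosome 13, 82737159 to 82758004) was at 219, 166 and 207 CPM in control and at 77.9, 228 and 162 CPM in ACS replicates 1, 2 and 3. ACS replicate 1 was far below the rest, replicate 2 above every control and replicate 3 just below them. The means were 198 ± 27.8 and 156 ± 75.1 CPM (SD, n = 3 each), and the log2 fold change was -0.34 (SE 0.388, 95% interval from -1.23 to 0.54, adjusted p = 0.622 in edgeR). Without ACS replicate 1 it was -0.02. The gene overlaps 185 bases of Nme7 on the other strand, which held 309 counts over all 6 libraries.

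Atp1b2 (ENSRNOG00000011227, chromosome 10, 56205625 to 56211891), the beta subunit also known as an adhesion molecule of glia, was the only one of the 7 with a higher mean in ACS muscle. It was at 221, 117 and 371 CPM in control and at 166, 262 and 569 CPM in ACS replicates 1, 2 and 3. In each group replicate 3 was the highest, and the groups overlapped. These 2 libraries are the ones whose description holds "ji". The means were 236 ± 128 and 332 ± 211 CPM (SD, n = 3 each), with a log2 fold change of 0.49 (SE 0.539, 95% interval from -0.74 to 1.72, adjusted p = 0.611 in edgeR). With a term for the "ji" libraries it was 0.43, with both left out 0.33, and without ACS replicate 3 alone it turned to -0.15. The SD of log2 CPM among the controls was at the 98.2nd percentile of the 7001 genes.

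Atp1b4 (ENSRNOG00000007059, X chromosome, 124631881 to 124652975) encodes a muscle protein related to the pump beta subunits that, in placental mammals, is known from the inner nuclear membrane and not from the pump. Its control libraries were at 19.2, 19.4 and 21.1 CPM, a span of 1.10-fold. The ACS libraries were at 2.43, 5.20 and 22.7 CPM, so that replicates 1 and 2 were far below every control and replicate 3 was above every control. This span of 9.34-fold put the SD of the ACS libraries at the 98.1st percentile of the 7001 genes, while that of the controls was at the 8.67th. The means were 19.9 ± 1.05 and 10.1 ± 11.0 CPM (SD, n = 3 each), with a log2 fold change of -0.97 (SE 0.674, 95% interval from -2.50 to 0.57, adjusted p = 0.418 in edgeR). It was -0.52 without ACS replicate 1 and -0.67 without ACS replicate 2. Without ACS replicate 3 it was -2.36 and passed (adjusted p = 0.0138 in edgeR). In that fit 1684 of 13226 tested genes passed, against 533 of 12873 with all 6 libraries. Over 19 alternatives the one without ACS replicate 3 was the only one where Atp1b4 passed, and its adjusted p ran up to 0.717. With both "ji" libraries left out, a fit that holds neither control replicate 3 nor ACS replicate 3, Atp1b4 was at -2.32 (adjusted p = 0.0700 in edgeR).

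**Figure D2:**
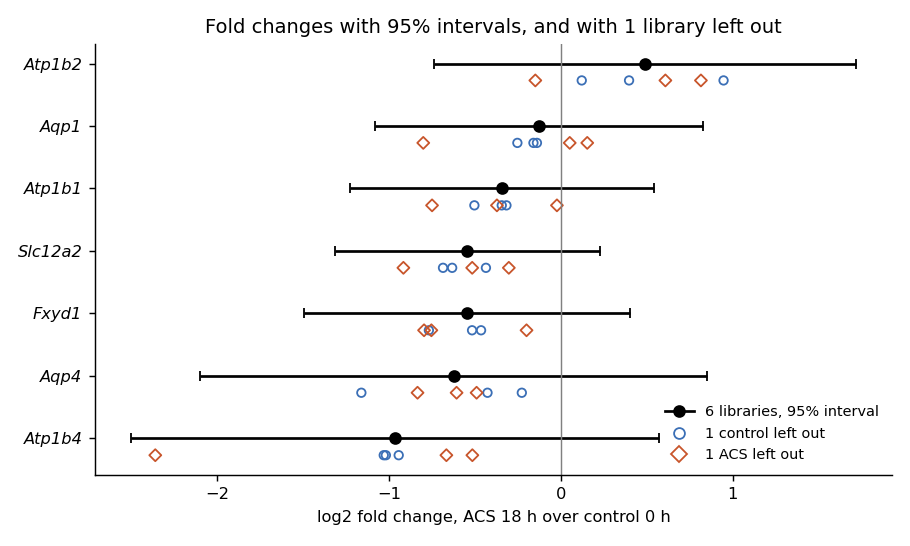
Log2 fold change of each gene, ACS 18 h over control 0 h, from edgeR on 6 libraries (filled points with 95% intervals) and with 1 library left out (open circles for a control, open diamonds for an ACS library). Every interval includes 0. The values for Aqp1 and Atp1b2 lie on both sides of 0, and Atp1b4 reaches -2.36 without ACS replicate 3.

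Set side by side by FPKM, Atp1b1 and Atp1b2 held most of the transcripts of the beta subunit family. The share of Atp1b2 in the sum of Atp1b1, Atp1b2, Atp1b3 and Atp1b4 was 46.3%, 35.3% and 58.2% in control and 52.4%, 48.6% and 69.6% in ACS replicates 1, 2 and 3. The groups overlapped, with means of 46.6% ± 11.5 and 56.9% ± 11.2 (SD, n = 3 each; exact two-sided permutation p = 0.4). Atp1b1 held 43.8%, 47.9% and 31.1% in control and 23.5%, 40.3% and 18.9% in ACS muscle (exact two-sided permutation p = 0.2, n = 3 each). Atp1b3 held 7.28% to 12.9% in control, and 23.6%, 10.5% and 9.66% in ACS replicates 1, 2 and 3. The share of Atp1b4 was 2.63%, 3.85% and 2.17% in control and 0.505%, 0.632% and 1.82% in ACS muscle. For the share of Atp1b4 all ACS libraries were below all controls (exact two-sided permutation p = 0.1, n = 3 each, the smallest possible). In ACS replicate 3 this rests on the sum it is divided by. There Atp1b4 itself was at 4.69 FPKM, within the control range of 4.55 to 5.31. The sum was 257 FPKM, the highest of the 6 libraries. Of these 4 shares only that of Atp1b2 was planned for a test, and the others were computed with it. Since the smallest possible p is 0.1, none of the 4 shares can pass at 0.05 in this design, with or without adjustment. This holds for the planned test of Atp1b2 as well.

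**Figure D3:**
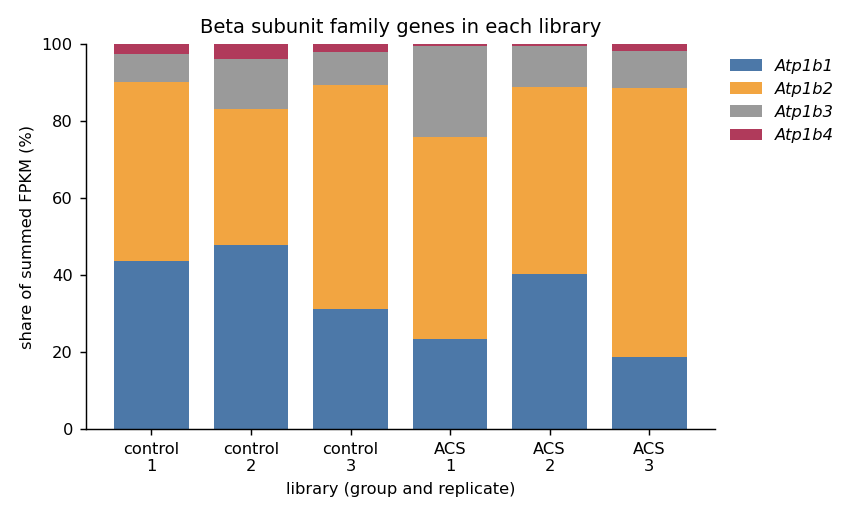
Share of Atp1b1, Atp1b2, Atp1b3 and Atp1b4 in their summed FPKM, in percent, with 1 stacked bar per library. The share of Atp1b2 lies between 35.3% and 58.2% in control and between 48.6% and 69.6% in ACS libraries, and that of Atp1b4 is at most 3.85% in any library.

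Fxyd1 (ENSRNOG00000021079, chromosome 1, 89484199 to 89488223), phospholemman, restrains the pump until it is phosphorylated. It was at 146, 154 and 95.5 CPM in control and at 40.1, 112 and 118 CPM in ACS replicates 1, 2 and 3. ACS replicate 1 was the lowest library, and the other ACS libraries lay between the controls. The means were 132 ± 31.7 and 90.0 ± 43.3 CPM (SD, n = 3 each), with a log2 fold change of -0.55 (SE 0.417, 95% interval from -1.50 to 0.40, adjusted p = 0.459 in edgeR), or -0.20 without ACS replicate 1. Of 6 other FXYD genes 3 were tested and none passed, with log2 fold changes between -0.66 and 2.56.

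Slc12a2 (ENSRNOG00000015971, chromosome 18, 52917124 to 52985261) was at 115, 125 and 157 CPM in control and at 57.1, 83.0 and 131 CPM in ACS replicates 1, 2 and 3. ACS replicates 1 and 2 were below every control and replicate 3 lay between them. The means were 132 ± 21.98 and 90.4 ± 37.5 CPM (SD, n = 3 each). The log2 fold change was -0.55 (SE 0.339, 95% interval from -1.32 to 0.23, adjusted p = 0.365 in edgeR). It was -0.30 without ACS replicate 1 and -0.92 without ACS replicate 3 (adjusted p = 0.0818). Adjusted p ran from there up to 0.820 over 19 alternatives, none of which passed. Of the 8 other cation-chloride cotransporters 4 were tested and none passed, with log2 fold changes between -0.83 and 1.26. Of the 6 kinases upstream of Slc12a2, 5 were tested and none passed. Wnk1, the most abundant of these, averaged 488 ± 113 CPM in controls and 568 ± 135 CPM with ACS (SD, n = 3 each).

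In order of mean FPKM, control muscle held Fxyd1 at 276 ± 61.6, Aqp1 at 91.0 ± 7.31, Atp1b2 at 88.6 ± 49.9, Atp1b1 at 70.2 ± 9.63, Slc12a2 at 23.2 ± 4.52, Aqp4 at 20.7 ± 14.96 and Atp1b4 at 4.87 ± 0.392 (SD, n = 3 each). Fxyd1 stood above the next gene in all 3 controls without overlap, as did Atp1b1 above Slc12a2. The ranges of Aqp1, Atp1b2 and Atp1b1 overlapped between neighbours, and so did those of Slc12a2, Aqp4 and Atp1b4. In ACS muscle Atp1b2 at 103 ± 70.3 came before Aqp1 at 69.1 ± 50.5, and the rest of the order was the same. There only Aqp4, at 11.0 ± 3.69, stood clear of its lower neighbour, Atp1b4 at 2.08 ± 2.30. FPKM divides by a total that includes mitochondrial reads, so its level in ACS replicate 1 is set low for all nuclear genes.

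Beyond the 7, the lists of water and ion transport held 68 other genes, of which 67 were matched and 46 tested. In edgeR 3 rose (6.52%, against 3.43% of all tested genes) and 0 fell, and 13 had an unadjusted p under 0.05 (28.3%, against 23.5% of all tested genes). Their median log2 fold change was 0.01, against -0.01 over all tested genes. The lists were chosen with earlier results of these data known, so these shares are no independent test of them. Of 10 tested genes of volume and osmotic response 2 rose: Sgk1, a kinase induced by glucocorticoids and cell stress that raises sodium transport, and Trpv4, a cation channel that opens when cells swell. Sgk1 was at 59.3, 36.5 and 22.8 CPM in control and 530.2, 554 and 319 CPM in ACS replicates 1, 2 and 3, with a log2 fold change of 3.56 (SE 0.441, adjusted p = 0.0119). Trpv4 was at 1.12, 0.919 and 1.12 CPM in controls and 5.71, 4.89 and 5.47 CPM with ACS (log2 fold change 2.34, SE 0.346, adjusted p = 0.0155). For both genes all ACS libraries lay well above all controls, and 16.7% of tested genes had every ACS library above every control. Of 8 tested genes of sodium, proton, calcium and bicarbonate exchange 1 rose, the sodium-bicarbonate cotransporter Slc4a7. It went from 12.7 ± 1.94 to 33.2 ± 5.72 CPM (SD, n = 3 each), with a log2 fold change of 1.39 (SE 0.261, adjusted p = 0.0311). Of 7 tested chloride and potassium channel genes none passed and 6 had a negative log2 fold change. The most abundant of them, Abcc9, a subunit of ATP-sensitive potassium channels, measured 378 ± 27.1 and 330 ± 99.3 CPM (SD, n = 3 each; adjusted p = 0.730 in edgeR). None of the 3 genes that rose passed in edgeR without any 1 control library, but no gene of the whole table passed in those fits. There log2 fold changes lay between 3.24 and 3.92 for Sgk1, 2.20 and 2.34 for Trpv4 and 1.25 and 1.46 for Slc4a7. Adjusted p over all alternatives lay between 1.86e-14 and 0.0980 for Sgk1, 1.01e-06 and 0.143 for Trpv4 and 0.000231 and 0.184 for Slc4a7.

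**Figure D4:**
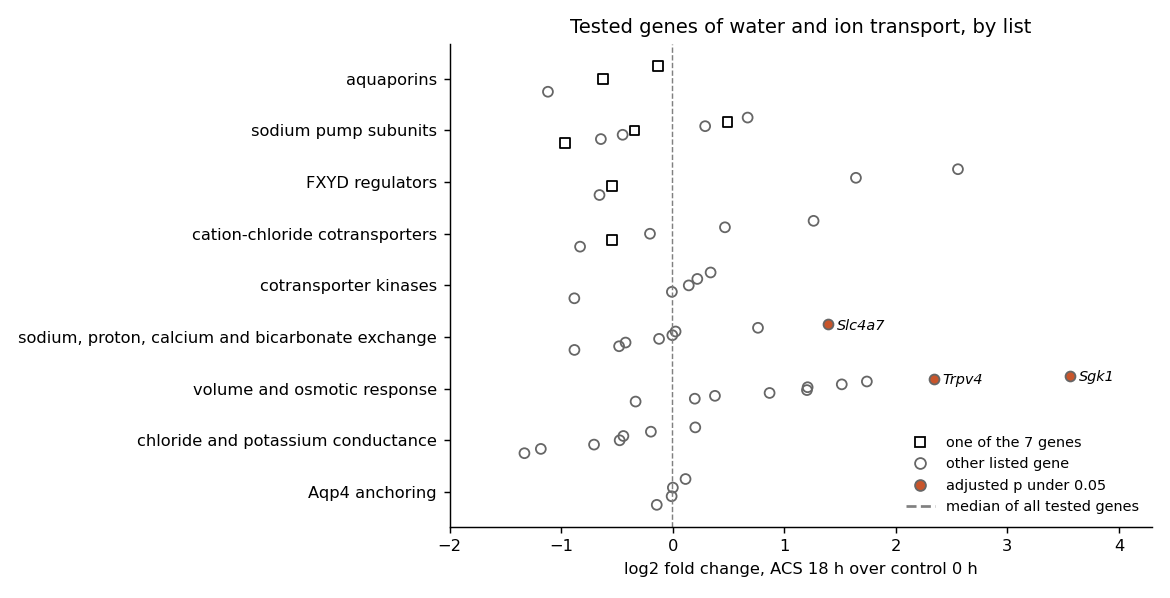
Log2 fold change of every tested gene in 9 lists of water and ion transport, ACS 18 h over control 0 h, with the 7 genes as squares, other genes as circles and those past an adjusted p of 0.05 filled. The filled points are Slc4a7, Trpv4 and Sgk1, and all 7 squares are open and lie between -0.97 and 0.49.

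Markers of the tissue and of other cell types were summed in each library. The 6 muscle fibre markers summed to between 63713 and 89351 CPM in control. In ACS replicates 1, 2 and 3 they summed to 40898, 70473 and 103688 CPM. Of these 6 markers none passed in edgeR. ACS replicate 3, with the highest sum, was also the ACS library with the highest Aqp4, Atp1b2, Atp1b4, Fxyd1 and Slc12a2. Aqp1 and Atp1b1 were highest in ACS replicate 2. Control replicate 3, with the lowest sum of the controls, held the lowest Aqp4 and Fxyd1 among them but the highest Atp1b2, Atp1b4 and Slc12a2. Of the 5 neutrophil markers all 5 were higher, and their sums went from between 0.975 and 3.88 CPM to 259, 18.0 and 64.0 CPM; the filter on low counts could be passed through the ACS libraries alone. The 5 fibroblast markers summed to between 690 and 1076 CPM in control and to between 2318 and 2960 CPM in ACS muscle, with none past the threshold. The 5 macrophage markers summed to between 19.7 and 35.0 CPM in control and 156, 57.3 and 27.7 CPM in ACS replicates 1, 2 and 3, and the 5 smooth muscle and pericyte markers to between 244 and 336 and between 212 and 287 CPM. The 5 Schwann cell markers summed to between 67.3 and 93.2 CPM in control and 31.4 and 58.5 CPM in ACS muscle, and the 4 satellite cell markers to between 7.27 and 9.29 and between 6.17 and 11.0 CPM, of which Myf5, a regulator of myogenic cells named after its values were seen, was higher. Myh7, the slow myosin heavy chain, was at 2202, 2107 and 1789 CPM in control and 1037, 1688 and 967 CPM in ACS replicates 1, 2 and 3 (adjusted p = 0.253). No matched marker was at 0 in all libraries, and Trem1, a neutrophil marker, was at 0 in control replicate 2. The part of a changing mix of cells in the levels of the 7 genes was not tested.

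Likeness of pattern was measured as the mean absolute difference of log2 CPM, centred on each gene's mean over the 6 libraries, among 7001 genes with a mean of at least 10 CPM. The nearest genes were Tmem63b (0.106) and Tcta (0.140) for Aqp1, and Mgat4b (0.0651) and Emc10 (0.0663) for Atp1b1. For Fxyd1 they were Macrod1 (0.0677) and Trim35 (0.0686), and for Slc12a2 Mrps21 (0.0506) and a gene model without a symbol (0.0589). Atp1b4 was nearest to Ppapdc3 (0.200) and Cacng6 (0.223), and Atp1b2 to Tfdp2 (0.233) and Ppp3r1 (0.298). The nearest genes to Aqp4 were further off, with Myoz3 at 0.473 and Angptl2 at 0.490. The measure is not scaled by spread, so a widely spread gene tends to lie far from others. The SD of Aqp4 among the controls was at the 99.8th percentile of the 7001 genes. Myoz3, a protein of the sarcomere, was at 149, 138 and 55.2 CPM in controls, also lowest in replicate 3. Cacng6, a calcium channel subunit, was at 60.4, 63.7 and 75.3 CPM in control and 12.6, 16.3 and 57.0 CPM in ACS replicates 1, 2 and 3, with ACS replicates 1 and 2 low as for Atp1b4. All these genes share the same 6 libraries and their depth, and the measure has no test. They were picked for a like pattern, so low libraries in common follow from the choice.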

How the data were processed

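Ribosomal RNA was removed from total RNA before library preparation, per the labels' protocols. The authors deposited 1 table with whole-number read counts and FPKM per gene for 6 libraries. Per the submitters' processing notes, HISAT2 2.0.4 and StringTie 1.3.0 were used with Rnor 6.0. The sources used here do not name the counting tool or its strand setting, so reads of overlapping genes on the other strand may not be told apart. The deposited FPKM equalled count over 1 gene length and the library total in all 13786 genes with a count in every library, to within 0.1%.

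The counts were filtered with filterByExpr (minimum count 10, total 15), scaled by TMM and tested over all genes with edgeR's quasi-likelihood F test, group as the only term, p-values adjusted by Benjamini-Hochberg and called under 0.05. The 95% intervals and SE come from the F statistic. Shares of FPKM were compared with an exact permutation test. On counts simulated for this comparison over 12873 genes, edgeR recovered 2% of 50 genes changed 2-fold, 44% at 4-fold and 88% at 8-fold. A gene that misses the threshold is therefore not shown to be unchanged. The simulation changed only 50 genes at each fold from 2 to 16 and gave 124 calls, of which 8.06% were false. The data gave 533 calls, so the recovery there may differ from the simulated one. Every pair of libraries differed by more than sampling noise (chi-square per degree of freedom from 40.8 to 777).

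The 7 genes and the lists were chosen with earlier results of these data known. Named genes are the 7, up to 3 members per list past the threshold or else the most abundant, and the 2 genes nearest in pattern to each of the 7; others are said to be chosen after their values were seen. Some genes that this rule names are not reported here. Of the markers Pecam1, Myh2 and Myh4, and of the lists Slc5a3, were not matched and are not analysed here; 2 haemoglobin symbols led to 1 row. Protein sequences of the 7 were not used here. Alternatives covered scaling, filters, DESeq2, limma-voom, limma on log2(FPKM + 1) and log2(FPKM + 0.1) for genes at 1 FPKM in 3 libraries, a replicate block, the libraries described with "ji" and leaving out each library; leaving out control replicate 3 with ACS replicate 1 was added after seeing the data. Fits used edgeR 4.0.16, DESeq2 1.42.0 and limma 3.58.1 under R 4.3.3, and plots matplotlib 3.10.9.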

Additional observations from a re-analysis of the deposited data

How the results depend on the processing

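Over 19 alternatives the number of the 7 genes past the threshold was 0, except without ACS replicate 3, where it was 1 (Atp1b4), so the leave-one-out range was 0 to 1. Aqp1, Atp1b1 and Atp1b2 changed sign, and none of them passed in any alternative. Aqp1 was at 0.17 with both "ji" libraries left out and ranged from -0.80 to 0.15 with 1 library left out. With control replicate 3 and ACS replicate 1 both left out Aqp1 was at 0.0715 and Atp1b1 at 0.0172. Atp1b2 ranged from -0.15 to 0.95 with 1 library left out. The difference in the Aqp4 share ranged from -8.15 to 3.91 percentage points with 1 library left out and was -13.2 without both "ji" libraries, against -1.10, and the difference in the Atp1b2 share kept its sign throughout. Over all genes the number past the threshold was 533, against 908 with no filter, 1749 with DESeq2, 333 with limma-voom, 330 with log2(FPKM + 0.1), 280 with the "ji" term, 201 without both "ji" libraries, 348 without control replicate 3 and ACS replicate 1, and 0 (edgeR without any 1 control, where 2063 to 2289 had an unadjusted p under 0.05) to 1684 (without ACS replicate 3) with 1 library left out. Of all listed genes, the 7 included, 3 passed, against 5 with no filter, 5 with 50 counts in every library of a group, 11 with DESeq2, 1 with log2(FPKM + 0.1), and 0 to 9 with 1 library left out. The cause of these differences was not tested. Deviations of same-numbered libraries from their group means correlated at -0.0629, 0.0105 and 0.0397 across genes. Those of differently numbered libraries lay between -0.0686 and 0.0635, so no pairing by replicate number was seen. With group means over 3 libraries this check cannot exclude a shared origin of libraries. With the replicate block 0 of the 7 genes, 3 listed genes and 505 genes in all passed, and Atp1b4 was at -1.56.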

Other observations

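Of the 10 tested genes of cell volume and osmotic response, 8 did not pass the threshold, and those described here were picked after their values were seen. Nfat5, a transcription factor that responds to hypertonic stress, was at 78.7, 114 and 112 CPM in control and 370.4, 342 and 158 CPM in ACS replicates 1, 2 and 3 (log2 fold change 1.52, SE 0.373, adjusted p = 0.0576 in edgeR). Slc6a6, the taurine transporter that loads cells with an osmolyte, was at 31.8, 24.2 and 37.8 CPM in control and 149, 133 and 32.4 CPM in ACS muscle, where replicate 3 lay among the controls (adjusted p = 0.0874). Lrrc8a, the required subunit of the volume-regulated anion channel, measured 28.1 ± 6.48 and 65.0 ± 30.7 CPM, and its partner Lrrc8b 7.57 ± 1.60 and 17.4 ± 1.12 CPM (SD, n = 3 each; edgeR adjusted p = 0.104 and 0.0502). For the others of the list log2 fold changes were -0.33 (SE 0.400) for Akr1b1, which makes the osmolyte sorbitol, 0.20 (SE 0.397) for Lrrc8c and 0.38 (SE 0.835) for Lrrc8e, and Lrrc8d was at 0.87 (SE 0.327), with adjusted p of 0.641, 0.789, 0.810 and 0.156 in edgeR. Kcnj2, of the channel list, an inward-rectifying potassium channel of the resting membrane, was at 34.2, 30.3 and 31.3 CPM in control and 7.02, 21.4 and 9.60 CPM in ACS replicates 1, 2 and 3 (adjusted p = 0.0941 in edgeR). Every ACS library was below every control, which held for 14.8% of tested genes.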
